A study of Mus musculus with 34 samples.

Results

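The 10 genes described here encode the TGF-beta ligands Tgfb1, Tgfb2 and Tgfb3, the receptors Tgfbr1, Tgfbr2 and Tgfbr3, and the latent TGF-beta binding proteins Ltbp1, Ltbp2, Ltbp3 and Ltbp4. They were taken by name out of 23109 genes in the RNA-Seq tables, and the set was picked partly by the measured values of Ltbp1, which were higher at day 2 (D2) in both perturbed cell populations than in their controls. The D2 ratios of perturbed to control cells are therefore given as a description only. All 10 genes reached a level of 1 RPKM (reads mapped per kilobase of transcript, scaled to a fixed number of mapped reads per library) in at least 1 library, and 9 did so in all 14.

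TGF-beta is made as a precursor whose cut propeptide stays wrapped around the growth factor and keeps it inactive. Ltbp1, Ltbp3 and, more weakly, Ltbp4 bind this small latent complex through a disulfide bond and anchor it to fibrillin and fibronectin fibres, whereas Ltbp2 does not bind latent TGF-beta and serves mainly in microfibril assembly. Once freed, the ligand binds Tgfbr2, which phosphorylates Tgfbr1, and the signal passes through Smad2 and Smad3. In preadipocytes TGF-beta is known as an inhibitor of adipocyte differentiation.

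The cells were brown preadipocytes from interscapular brown fat of newborn C57BL/6J mice, immortalized with SV40T. The labels call all of them GR flox/flox preadipocytes, carrying floxed alleles of the glucocorticoid receptor, and describe Vec and Cre infection without saying which of the 2 each library received. Every library therefore shares the SV40T background. One pair of populations stably expressed FLAG-tagged H3.3 from a retrovirus, either wild type (WT) or with the K36M mutation (K36M), which lowers H3K36 methylation, and was collected before induction of adipogenesis (D0), at D2 and at day 7 (D7). The same 2 populations with ectopic PPARγ were collected with DMSO (labelled 0 h) or after 24 h of the PPARγ ligand rosiglitazone (Rosi). DMSO served as the parallel vehicle arm in the published design, although the titles give its libraries as 0 h. Another pair carried a lentiviral control shRNA (Ctrl) or an shRNA against the H3K36 methyltransferase Nsd2 (Nsd2 KD) and was collected at D0 and D2. Induction medium held insulin, T3, IBMX, dexamethasone and indomethacin for 2 days, so the D2 libraries come from cells at the end of that exposure. Each condition is 1 bulk library of an infected culture, so no spread between replicates can be given and nothing was tested.

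The libraries held 12213559 to 24365867 mapped reads, recovered as whole reads from the RPKM values, and the fewest reads behind any member value were the 79 of Tgfb2 in Nsd2 KD D2. Intervals below are 95% Clopper-Pearson intervals from those reads and cover counting error only. Nsd2 was at 19.9 and 29.0 RPKM in Ctrl D0 and D2 and at 5.85 and 7.01 RPKM in Nsd2 KD D0 and D2. Of the adipocyte markers (Adipoq, Fabp4, Plin1, Cidec, Cebpa and Ucp1), 5 of 6 reached 1 RPKM in both D2 control libraries, while Ucp1, the defining gene of active brown fat, was at or near 0 throughout. Macrophage and blood cell markers summed to at most 8.28 RPKM and endothelial markers to at most 2.47 RPKM in any library. Skeletal muscle markers summed to 26.5 to 67.7 RPKM in the PPARγ libraries and to at most 15.0 RPKM elsewhere, with at most 1 of 6 markers at 1 RPKM in any library. The 2 control populations are the nearest thing to a repeat. Ctrl was over 2-fold lower than WT for 1 member at D0 (15.1% of all genes compared were lower and 7.1% higher) and differed for 2 members at D2, 1 higher and 1 lower (4.82% and 6.42% of all genes). Those 2 were Ltbp4, with a log2 ratio of 1.66 for Ctrl against WT at D2, and Ltbp2, with -3.09. Differences of that size thus occurred between control cells, and virus, ectopic H3.3, shRNA and culture cannot be told apart in them. In bulk RNA, a change in the share of cells that express a gene and a change in RNA per cell cannot be told apart either.

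**Figure D1:**
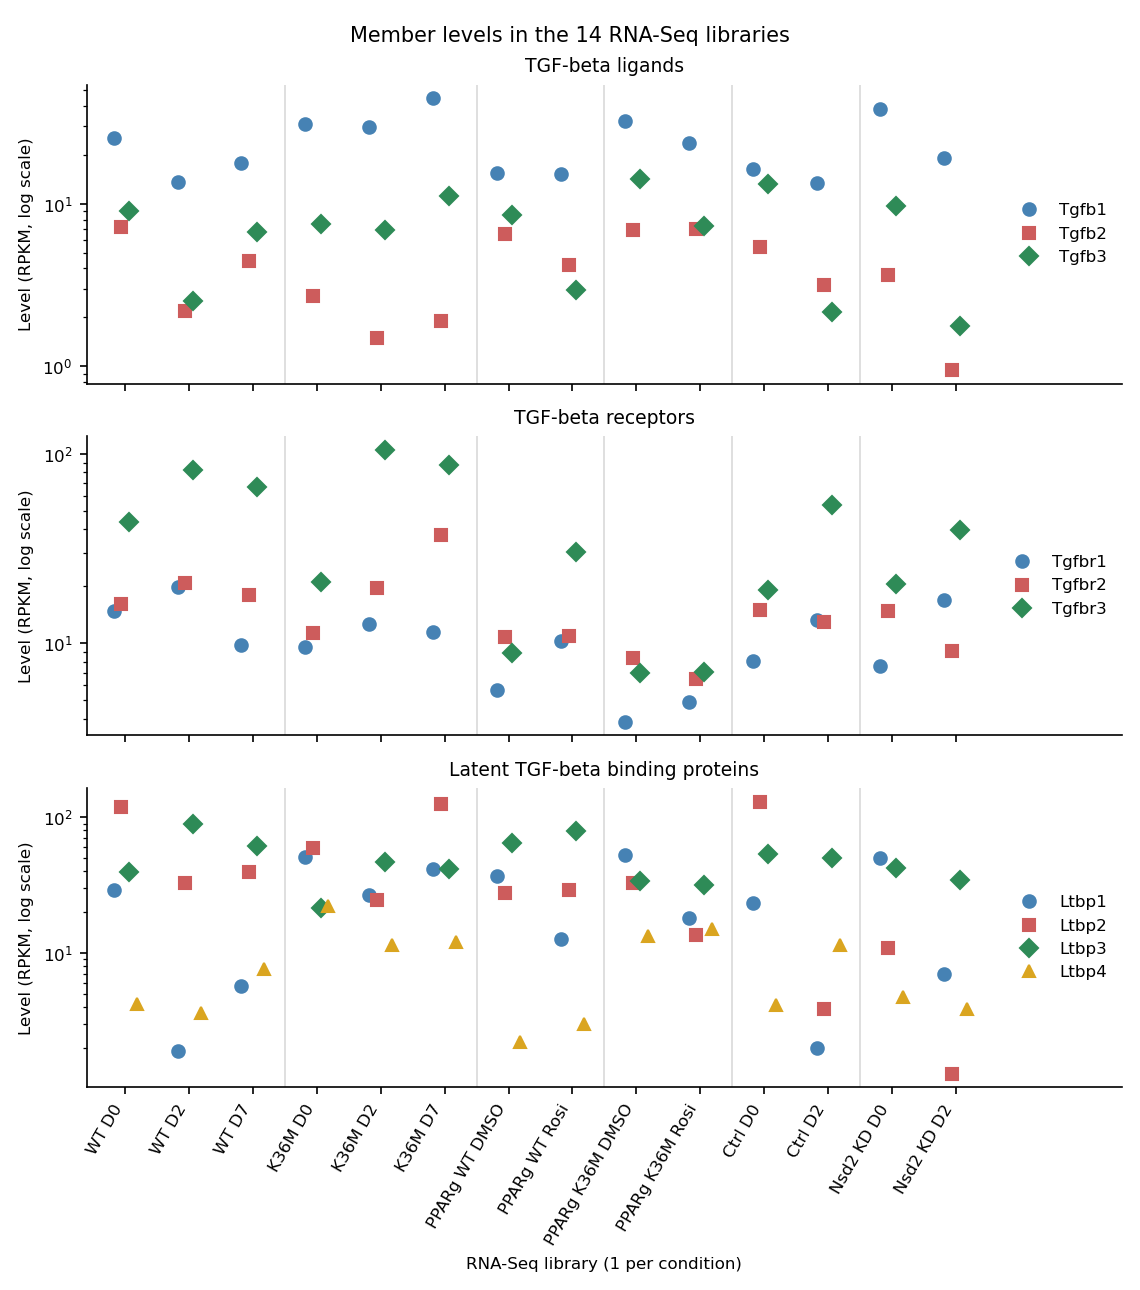
Level of each member (RPKM, log scale) in each of the 14 RNA-Seq libraries, 1 point per library, with ligands, receptors and latent binders in separate panels and points shifted sideways for sight. Ltbp2 spans 1.29 to 130.1 RPKM and Ltbp1 spans 1.92 to 52.6 RPKM, the widest ranges of the 10 genes, while Tgfb1 stays between 13.4 and 44.9 RPKM.

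Tgfb1 was the main ligand transcript in every library, with 46.9% to 87.7% of the summed RPKM of the 3 ligands. Its gene lies at chr7:26472021-26490096 (plus strand, mm9). In WT cells it was at 25.4, 13.7 and 17.9 RPKM at D0, D2 and D7, and in K36M cells at 31.2, 29.8 and 44.9 RPKM. WT cells with PPARγ had 15.4 RPKM with DMSO and 15.3 RPKM with Rosi, and K36M cells with PPARγ had 32.7 and 23.7 RPKM. Ctrl cells had 16.5 RPKM at D0 and 13.4 RPKM at D2, and Nsd2 KD cells 38.3 and 19.3 RPKM. Each perturbed library was thus above its matched control, in all 5 K36M and WT pairs and in both Nsd2 KD and Ctrl pairs. The ratio passed 2-fold in K36M cells at D2 (log2 ratio 1.12, from 0.96 to 1.28), at D7 (1.32) and with PPARγ and DMSO (1.08), and in Nsd2 KD cells at D0 (1.21, from 1.08 to 1.35). It stayed under 2-fold in K36M cells at D0 (0.29), in PPARγ cells with Rosi (0.63) and in Nsd2 KD cells at D2 (0.53). Between the control populations, Ctrl was at -0.62 against WT at D0 and at -0.04 at D2.

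Tgfb3, a ligand of mesenchymal cells (chr12:87397694-87419991, minus strand), was cut back during early adipogenesis in the control cells. WT cells had 9.07, 2.54 and 6.72 RPKM at D0, D2 and D7, and Ctrl cells 13.3 and 2.14 RPKM at D0 and D2. In K36M cells it was at 7.53, 6.88 and 11.1 RPKM on the 3 days, and in Nsd2 KD cells at 9.71 and 1.76 RPKM. The fall from D0 to D2 was seen in WT, Ctrl and Nsd2 KD cells, whereas the K36M libraries differed by less than their counting error (log2 ratio -0.13, from -0.34 to 0.08). The D0 to D2 change of K36M cells departed from that of WT cells by 1.71 on the log2 scale (1.39 to 2.03). That of Nsd2 KD cells departed from Ctrl by 0.17 (-0.22 to 0.56). With PPARγ, WT cells had 8.49 RPKM under DMSO and 2.96 RPKM under Rosi, and K36M cells 14.3 and 7.33 RPKM, the latter pair just under 2-fold apart.

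Tgfb2 (chr1:188447065-188529871, minus strand) was the scarcest ligand in most libraries, at 7.17, 2.19 and 4.47 RPKM in WT cells and 2.70, 1.49 and 1.91 RPKM in K36M cells at D0, D2 and D7. Ctrl cells had 5.39 and 3.14 RPKM and Nsd2 KD cells 3.62 and 0.947 RPKM at D0 and D2. It moved opposite to Tgfb1 in the perturbed cells without PPARγ: all 5 perturbed libraries were below their controls, over 2-fold in K36M D0 (log2 ratio -1.41), K36M D7 (-1.23) and Nsd2 KD D2 (-1.73, from -2.11 to -1.37). With a pseudocount of 1 RPKM added to each level, K36M D7 was at -0.91. With PPARγ, WT cells had 6.54 and 4.22 RPKM and K36M cells 6.86 and 7.04 RPKM with DMSO and Rosi. The DMSO pair did not differ beyond counting error (0.07, from -0.08 to 0.22), and the Rosi pair was higher in K36M, under 2-fold (0.74, from 0.53 to 0.95). The 3 ligands summed to 41.7 RPKM in WT D0 and 18.5 RPKM in WT D2, against 41.4 and 38.2 RPKM in the K36M libraries. In the shRNA pair it went from 35.2 to 18.6 RPKM in Ctrl cells and from 51.6 to 22.0 RPKM in Nsd2 KD cells.

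Among the receptors, Tgfbr3 (betaglycan, the co-receptor that presents ligand to Tgfbr2; chr5:107535589-107718648, minus strand) moved most. WT cells had 44.0, 82.6 and 67.0 RPKM and K36M cells 21.0, 105.1 and 87.6 RPKM at D0, D2 and D7. Ctrl cells had 19.1 and 53.7 RPKM and Nsd2 KD cells 20.5 and 39.8 RPKM at D0 and D2. D2 was above D0 in all 4 populations, over 2-fold in K36M (log2 ratio 2.33, from 2.26 to 2.39) and Ctrl cells (1.49), and at 0.91 in WT and 0.96 in Nsd2 KD cells. K36M cells started below WT (-1.07 at D0), yet Ctrl preadipocytes lay just as far below WT (-1.20). With PPARγ and no induction medium, Tgfbr3 was at 8.90 RPKM under DMSO and 30.4 RPKM under Rosi in WT cells, and at 6.99 and 7.06 RPKM in K36M cells. That difference in response was -1.76 on the log2 scale (-1.93 to -1.58), the widest of the 10 genes for Rosi.

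The signalling receptors moved less. Tgfbr1, the type I receptor kinase (chr4:47366094-47427803, plus strand), lay between 3.85 RPKM in K36M cells with PPARγ and DMSO and 19.9 RPKM in WT D2, with a median of 10.1 RPKM over the 14 libraries. It passed 2-fold in 3 comparisons: lower in WT cells from D2 to D7 (-1.02), lower with K36M than with WT H3.3 under PPARγ and Rosi (-1.08), and higher from D0 to D2 in Nsd2 KD cells (1.17). With a pseudocount of 1, the first and second of these were under 2-fold (-0.95 and -0.94). Tgfbr2, the type II receptor that binds ligand first (chr9:115993415-116084383, minus strand), ranged from 6.45 RPKM in K36M cells with PPARγ and Rosi to 37.5 RPKM in K36M D7, with a median of 13.9 RPKM. Among its comparisons, K36M D7 passed 2-fold, at 2.07-fold above WT D7 (18.1 RPKM, log2 ratio 1.05), but stayed under it with libraries rescaled by the median ratio of all genes (0.93). The D2 libraries of K36M and WT cells did not differ beyond counting error (19.7 and 20.8 RPKM, log2 ratio -0.08, from -0.18 to 0.03).

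Ltbp1 showed the widest departure of perturbed from control cells at D2, by the ratios that entered the choice of genes. The gene lies at chr17:75404908-75791852 (plus strand, mm9) and is listed with 2 RefSeq transcripts, NM_206958 (used here, 6771 bases) and the longer NM_019919 (7910 bases). The longer one stood at 0.865 to 0.987 of the RPKM of the shorter one in the 14 libraries. Reads over shared exons count for both, so the reads cannot be assigned to 1 of them. Since the results turn on this gene, its 2 promoter windows in the RefSeq table, 250 bases before to 50 bases after a start, are shown. They lie on GRCm38.p6 at chr17:75005279-75005578 and chr17:75178531-75178830, both on the plus strand. Capitals mark CAGAC, the Smad-binding element core, on either strand (GTCTG).
Ltbp1 start 1: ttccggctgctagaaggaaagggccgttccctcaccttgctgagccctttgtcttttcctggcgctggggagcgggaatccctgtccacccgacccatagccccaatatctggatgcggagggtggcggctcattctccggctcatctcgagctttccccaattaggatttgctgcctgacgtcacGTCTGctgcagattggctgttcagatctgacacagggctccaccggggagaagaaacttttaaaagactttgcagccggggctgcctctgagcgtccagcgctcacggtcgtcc
Ltbp1 start 2: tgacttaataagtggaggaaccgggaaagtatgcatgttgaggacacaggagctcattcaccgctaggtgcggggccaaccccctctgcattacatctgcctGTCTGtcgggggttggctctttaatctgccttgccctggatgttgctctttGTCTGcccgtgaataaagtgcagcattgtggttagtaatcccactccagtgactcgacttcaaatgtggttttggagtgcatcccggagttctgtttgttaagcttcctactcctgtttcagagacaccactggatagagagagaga
The first window holds 1 such motif and 17 CpG dinucleotides, and the second holds 2 motifs and 7 CpG. A CAGAC on either strand is found in 49.6% of all 32817 promoter windows of that length, and the median window holds 7 CpG. Neither window holds the AP-1 motif TGACTCA (5.2% of windows) or the GC box GGGCGG (35.6%). Of the 10 members, 8 have windows in the RefSeq table.

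Ltbp1 stood at 29.4 RPKM in WT D0, 1.92 RPKM in WT D2 and 5.72 RPKM in WT D7. K36M cells had 50.9, 26.9 and 41.9 RPKM on the same days. In the shRNA pair, Ctrl cells had 23.3 RPKM at D0 and 1.99 RPKM at D2, and Nsd2 KD cells 49.9 and 6.96 RPKM. Both control populations thus arrived at nearly the same low level at D2 (log2 ratio of Ctrl to WT 0.05, from -0.20 to 0.30). The fall from D0 to D2 was 15.3-fold in WT cells and 11.7-fold in Ctrl cells, 7.17-fold in Nsd2 KD cells, and 1.89-fold in K36M cells, which is under the 2-fold limit. The D0 to D2 change of K36M cells departed from that of WT cells by 3.02 on the log2 scale, and that of Nsd2 KD cells from Ctrl by 0.71. Each departure is the D2 ratio that entered the choice of genes less the D0 ratio, so it is no separate result. The D2 levels of the control and perturbed cells behind these falls entered that choice too.

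The D2 ratios that led to the choice of these genes were a log2 ratio of 3.81 (3.62 to 4.00) for K36M against WT and of 1.81 (1.61 to 2.01) for Nsd2 KD against Ctrl, apart by 2.00 (1.73 to 2.27). Outside D2, Ltbp1 was also higher in the perturbed cells. The log2 ratio was 0.79 in K36M against WT preadipocytes at D0, 2.87 at D7 (2.74 to 3.01), and 1.10 in Nsd2 KD against Ctrl at D0 (1.03 to 1.16). The 2 ectopic PPARγ pairs gave smaller values of 0.51 with DMSO and 0.52 with Rosi. Ctrl D0 lay a little below WT D0 (-0.33). In order of level, K36M cells with PPARγ and DMSO came first at 52.6 RPKM, followed by K36M D0, Nsd2 KD D0 and K36M D7, and WT D2 came last. Of the 13 neighbouring pairs in that order, 2 did not differ beyond counting error.

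Ltbp1 was lower with Rosi in both PPARγ populations. WT cells had 37.1 RPKM with DMSO and 12.8 RPKM with Rosi, and K36M cells 52.6 and 18.3 RPKM. The fold was nearly the same, with log2 ratios of -1.54 and -1.53 and a difference between them of 0.01 (-0.10 to 0.12). The adipocyte markers summed to 156 RPKM with DMSO and 3108 RPKM with Rosi in WT cells, and to 80.6 and 1202 RPKM in K36M cells. At D2 they summed to 3638 RPKM in WT and 1597 RPKM in K36M cells, and to 1389 RPKM in Ctrl and 41.1 RPKM in Nsd2 KD cells. Within each D2 pair, the library with the lower marker sum had the higher Ltbp1 level, but that Ltbp1 order entered the choice of genes. Between pairs the order did not always hold. K36M D2 had both a higher marker sum and more Ltbp1 than Ctrl D2 (26.9 and 1.99 RPKM). At D7 the sums were 3543 RPKM in WT and 209 RPKM in K36M cells. The preadipocyte markers (Pdgfra, Pdgfrb, Cd34, Ly6a, Dlk1 and Cd81) summed to 117 and 205 RPKM in WT D2 and K36M D2, and to 85.0 and 71.3 RPKM in Ctrl D2 and Nsd2 KD D2. The part of the cells' differentiation state in the Ltbp1 values was not tested.

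**Figure D2:**
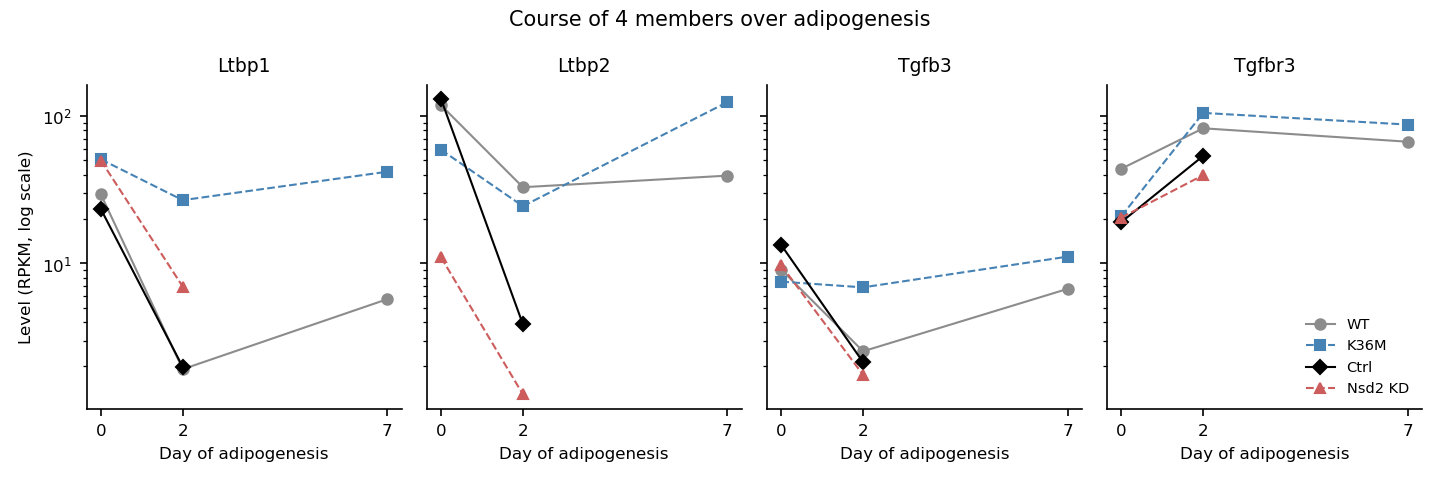
Level (RPKM, log scale) of 4 members against the day of adipogenesis in WT and K36M cells (D0, D2, D7) and in Ctrl and Nsd2 KD cells (D0, D2), 1 library per point, joined by lines to guide the eye. Ltbp1 falls to 1.92 and 1.99 RPKM in the 2 control populations at D2 and stays at 26.9 RPKM in K36M cells, while Ltbp2 parts the 2 control populations at D2. The Ltbp1 levels at D2 entered the choice of genes.

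Ltbp2 had the widest range of all members and followed another course. Its gene is at chr12:86124162-86217482 (minus strand, mm9). WT cells had 118 RPKM at D0, 32.9 RPKM at D2 and 39.4 RPKM at D7, and K36M cells 59.0, 24.5 and 124 RPKM. Ctrl cells had 130.1 RPKM at D0 and 3.87 RPKM at D2, and Nsd2 KD cells 11.0 and 1.29 RPKM. With PPARγ, WT cells had 27.5 RPKM with DMSO and 29.1 RPKM with Rosi, and K36M cells 33.0 and 13.6 RPKM. The largest perturbation effect was in preadipocytes, where Nsd2 KD lay 11.8-fold below Ctrl at D0 (log2 ratio -3.57, from -3.65 to -3.48). K36M D0 lay 2.00-fold below WT D0, at the limit itself (-1.003). K36M D7 lay 3.15-fold above WT D7 (1.66, from 1.60 to 1.71), the opposite direction. At D2, Nsd2 KD was below Ctrl (-1.58) and K36M at -0.43 against WT, but WT and Ctrl themselves were 8.51-fold apart at D2, so neither ratio exceeds the distance between controls.

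The promoter window of Ltbp2 is shown for comparison with those of Ltbp1, since the 2 genes moved in opposite directions in Nsd2 KD preadipocytes. It lies at chr12:84876442-84876741 on the minus strand (RefSeq, GRCm38.p6), and capitals mark CAGAC and GGGCGG on either strand.
Ltbp2: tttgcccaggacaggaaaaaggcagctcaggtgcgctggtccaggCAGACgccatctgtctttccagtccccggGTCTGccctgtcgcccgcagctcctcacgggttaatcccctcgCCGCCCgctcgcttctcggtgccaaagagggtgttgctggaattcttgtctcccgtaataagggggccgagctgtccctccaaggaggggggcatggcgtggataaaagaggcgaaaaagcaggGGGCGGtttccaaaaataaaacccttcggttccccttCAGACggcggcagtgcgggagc
It holds 3 CAGAC motifs, 2 GC boxes and 20 CpG. A long noncoding gene on the other strand, D030025P21Rik, overlaps the start of Ltbp2 by 764 bases in the mm9 annotation. Its level followed that of Ltbp2 more closely than any other gene of 8533 compared (Pearson r = 0.994 over the 14 libraries), and its reads came to 5.96% to 12.8% of the Ltbp2 reads. The sources do not say that counting used strand, so reads of the 2 genes cannot be told apart there.

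Ltbp3, a carrier of latent TGF-beta like Ltbp1 (chr19:5740904-5758532, plus strand), was the most even of the latent binders. It had 39.5, 89.9 and 62.0 RPKM in WT and 21.6, 47.1 and 41.4 RPKM in K36M cells at D0, D2 and D7, and 53.7 and 49.8 RPKM in Ctrl and 42.3 and 34.4 RPKM in Nsd2 KD cells at D0 and D2. PPARγ cells with DMSO and Rosi had 65.1 and 79.8 RPKM with WT and 34.0 and 31.7 RPKM with K36M H3.3. All 7 perturbed libraries were below their matched control, by a log2 ratio of -0.34 to -1.33, and the PPARγ and Rosi pair passed 2-fold. Between the controls, Ctrl was at 0.44 against WT at D0 and at -0.85 at D2. K36M against WT at D2 was at -0.93, and passed 2-fold with rescaled libraries (-1.01). Ltbp3 also passed 2-fold upward from D0 to D2 in WT (1.19) and K36M cells (1.13), and stood at -0.11 in Ctrl cells.

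Ltbp4, which binds latent TGF-beta weakly and takes part in elastic fibre assembly (chr7:28090155-28122711, minus strand), was higher in K36M than in WT cells. It had 4.25, 3.63 and 7.68 RPKM in WT cells and 22.4, 11.5 and 12.0 RPKM in K36M cells at D0, D2 and D7. PPARγ cells with DMSO and Rosi had 2.21 and 3.01 RPKM with WT and 13.4 and 15.0 RPKM with K36M H3.3. Ctrl cells had 4.12 and 11.5 RPKM and Nsd2 KD cells 4.76 and 3.87 RPKM at D0 and D2. K36M libraries were above WT in all 5 pairs, over 2-fold in 4 of them (log2 ratio 2.40 at D0, from 2.25 to 2.54). Nsd2 KD stood at 0.21 at D0 and was below Ctrl at D2 (-1.57), where Ctrl itself was 3.16-fold above WT. The D2 ratios of K36M and Nsd2 KD to their own controls were 3.23 apart on the log2 scale (2.98 to 3.48), the widest such gap among the members. The 2 controls were themselves 1.66 apart, which is part of this gap. K36M D2 and Ctrl D2 were level at 11.5 RPKM, and Nsd2 KD D2 (3.87 RPKM) was near WT D2 (3.63 RPKM).

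**Figure D3:**
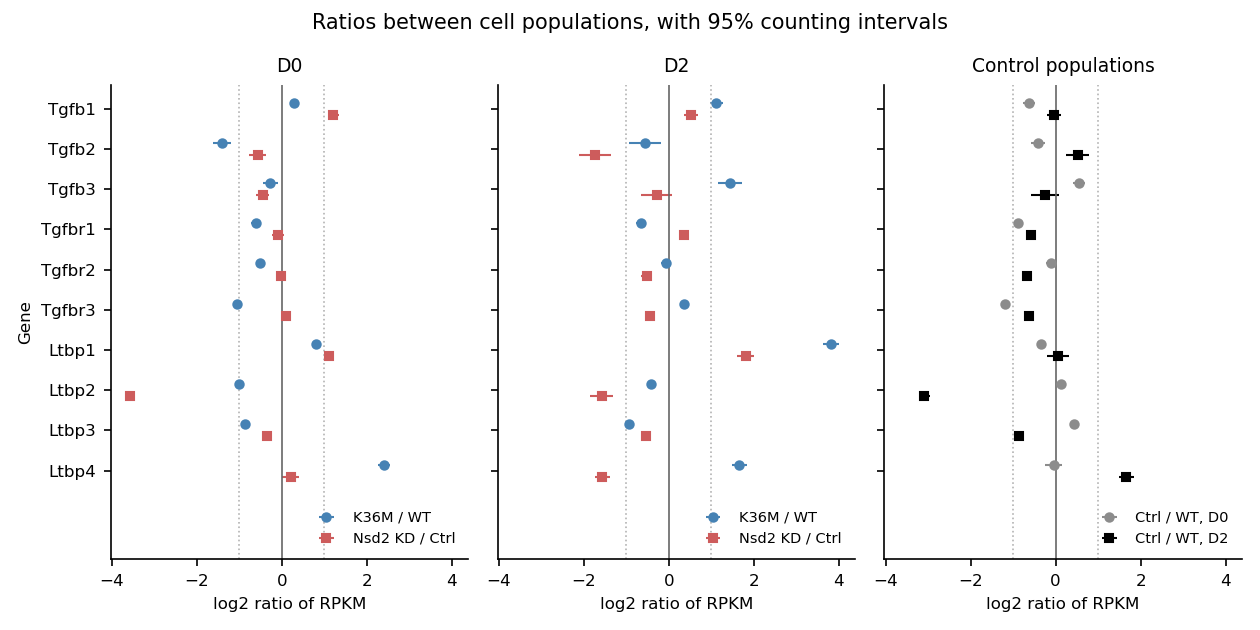
Log2 ratio of RPKM of each member, with 95% counting intervals, for K36M against WT and Nsd2 KD against Ctrl at D0 and D2, and for Ctrl against WT. Dotted lines mark 2-fold. Ltbp1 at D2 lies at 3.81 and 1.81 in the 2 perturbations, the ratios that entered the choice of genes, and at 0.05 between the controls. Ltbp2 and Ltbp4 lie at -3.09 and 1.66 between the controls at D2.

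Because RPKM is per length, the 4 latent binders can be added up within a library. Ltbp2 made up 61.8% of their summed RPKM in WT D0 and 61.6% in Ctrl D0. At D2, Ltbp3 led in WT (70.0%), and Ltbp1 made up 1.49% in WT and 2.96% in Ctrl. K36M D2 had 24.4% Ltbp1, and Nsd2 KD D2 had 14.9%. The makeup of Nsd2 KD preadipocytes differed from Ctrl before any induction, with 46.2% Ltbp1 and 10.2% Ltbp2 against 11.0% and 61.6%. Their summed level was 191 RPKM in WT D0 and 128 RPKM in WT D2, against 154 and 110 RPKM in the K36M libraries. Apart from the 2 D2 pairs that entered the choice of genes, all 5 other perturbed libraries had more Ltbp1 and less Ltbp3 than their matched controls.

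**Figure D4:**
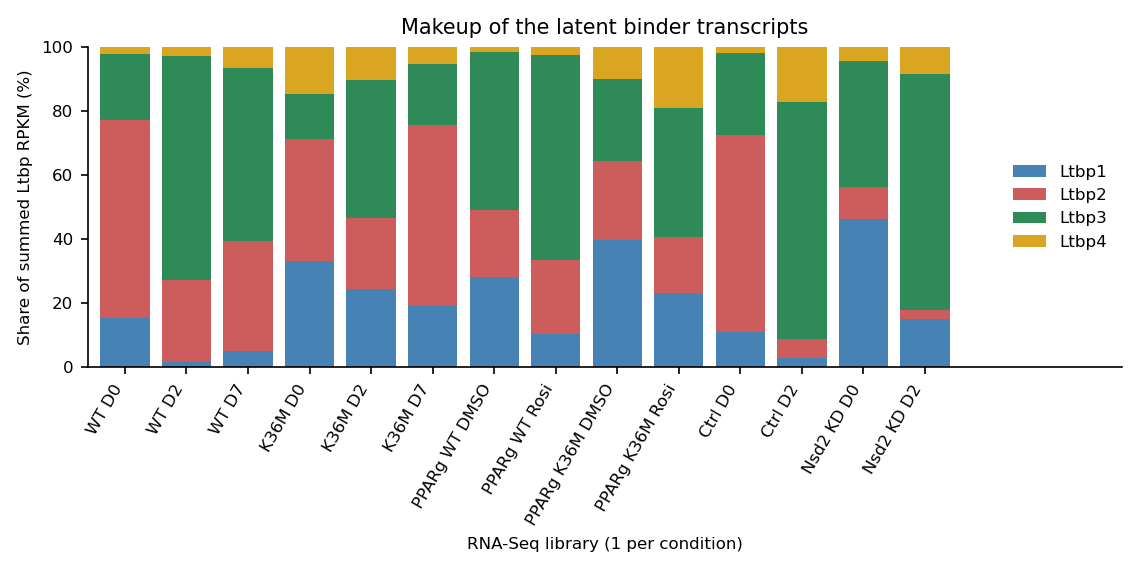
Share of each latent binder in the summed RPKM of the 4 genes (%, stacked bars from 0 to 100) in each of the 14 RNA-Seq libraries. The Ltbp1 share drops to 1.49% in WT D2 and 2.96% in Ctrl D2 and stands at 24.4% in K36M D2 and 14.9% in Nsd2 KD D2. The Ltbp1 levels behind these D2 shares entered the choice of genes.

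Counted over all 10 members, more fell than rose over 2-fold in the early step of adipogenesis in WT, Ctrl and Nsd2 KD cells, as among all genes. From D0 to D2, 4 fell and 1 rose over 2-fold in WT cells (17.3% and 9.38% of all genes compared), 3 fell and 2 rose in Ctrl cells (16.1% and 11.3%), and 4 fell and 1 rose in Nsd2 KD cells (16.8% and 11.8%). In K36M cells 1 fell and 2 rose (11.2% and 10.2%), with Ltbp1 (-0.92) and Ltbp4 (-0.96) just under the limit. No difference from the other populations is read from so few calls. Ltbp2 fell over 2-fold in all 4, and Ltbp1 in all but K36M. The Ltbp1 D2 levels of all 4 populations entered the choice of genes, so its falls are no separate result. From D2 to D7, 4 members rose and 1 fell in WT cells (15.7% and 5.08%), among them Tgfb2, Tgfb3, Ltbp1 and Ltbp4 upward, with Tgfbr1 downward. With a pseudocount of 1 the count was 2 in place of 5, since Tgfb2 (0.78), Ltbp4 (0.91) and Tgfbr1 (-0.95) then stayed under 2-fold, and Tgfb2 did so with rescaled libraries too (0.97). Ltbp1 and Tgfb3, which had fallen by D2, stayed over 2-fold with that pseudocount. The WT D2 level of Ltbp1 entered the choice of genes, so the rise of Ltbp1 is no separate result. In K36M cells 1 rose, Ltbp2, and 0 fell (15.7% and 7.02%).

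K36M against WT gave 1 member higher and 3 lower at D0 (5.02% and 6.36% of all genes), 4 higher and 0 lower at D2 (11.2% and 4.37%), and 4 higher and 1 lower at D7 (11.7% and 8.46%). Nothing is read from the D2 counts, since that contrast entered the choice of genes. Nsd2 KD against Ctrl gave 2 higher and 1 lower at D0 (6.61% and 10.8%) and 1 higher and 3 lower at D2 (4.88% and 9.57%). In PPARγ cells, Rosi raised 1 and lowered 2 members with WT H3.3 (9.96% and 5.05%) and raised 0 and lowered 2 with K36M (7.9% and 8.85%). K36M against WT in these cells gave 2 higher and 0 lower with DMSO (5.09% and 3.11%), and 2 higher and 4 lower with Rosi (7.02% and 12.1%). Contrasts of the same population share libraries, such as WT D0 and WT D2, so their counts are not separate evidence. The median log2 ratio of the members was 0.14 for K36M and -0.48 for Nsd2 KD at D2, against medians over all genes of 0.07 and -0.05.

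Only Ltbp1 was over 2-fold higher in both perturbations at D2, which is how the set was partly picked and so is no separate result. No member was over 2-fold lower in both. The 5 genes whose levels ran closest to those of Ltbp1 over the 14 libraries, on the log2(RPKM + 0.1) scale, were Frmd4a (r = 0.980), a scaffold protein of cell polarity, Sertad4 (0.969), Tes (0.961), a LIM protein of focal adhesions, Slc25a24 (0.959), a mitochondrial carrier, and Myof (0.947), a membrane repair protein. These correlations share libraries and depth and are descriptive. The closest gene to Tgfb1 was Inhbb (0.903), which encodes the activin beta B subunit. For the other ligands it was Adra1d for Tgfb2 (0.892) and Igf2bp3 for Tgfb3 (0.949). For the receptors it was Tmem260 for Tgfbr1 (0.932), Slc37a3 for Tgfbr2 (0.958) and Rev3l for Tgfbr3 (0.970). For Ltbp3 it was Adcy6 (0.876) and for Ltbp4 it was Rpl39l (0.892), which shares sequence with other ribosomal protein genes.

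The rest of the pathway was read from lists of genes by role. Of 11 textbook TGF-beta target genes, the early step of adipogenesis (D0 to D2) brought 10 down over 2-fold in WT and 10 in Ctrl cells, 9 in Nsd2 KD cells, and 6 in K36M cells, where 1 rose. Of all genes, 17.3%, 16.1%, 16.8% and 11.2% were lower in these 4 comparisons. At D2 the 2 perturbations parted. K36M against WT had 7 of 11 higher and 0 lower (median log2 ratio 1.79), and Nsd2 KD against Ctrl had 2 higher and 3 lower of 10 that reached 1 RPKM (median 0.02). At D2, 11.2% of all genes were higher and 4.37% lower in K36M, and 4.88% were higher and 9.57% lower in Nsd2 KD cells. The D2 list counts that follow stand beside the same shares. Pmepa1, a Smad-induced inhibitor of Smad signalling, was higher in both, at 22.6 against 6.54 RPKM in K36M and WT (1.79) and at 9.35 against 4.06 RPKM in Nsd2 KD and Ctrl (1.20). Between the controls at D2, Pmepa1 was at -0.687 in Ctrl against WT. For K36M against WT it was at -0.077 at D0 and at 1.479 at D7. The collagen genes Col1a1 and Col1a2 and the matrix gene Postn, named after their values were seen, went opposite ways. Col1a2 was at 55.1 against 11.1 RPKM in K36M and WT and at 1.32 against 35.3 RPKM in Nsd2 KD and Ctrl. The controls also differed for Col1a2, with Ctrl at 1.67 against WT at D2. Before induction, 6 targets were lower and 2 higher in Nsd2 KD than in Ctrl (10.8% and 6.61% of all genes). In K36M against WT, 4 were lower and 0 higher (6.36% and 5.02%). In Ctrl against WT 4 were higher and 0 lower at D0 (7.1% and 15.1%). K36M against WT had 5 targets higher and 0 lower at D7 (11.7% and 8.46%, median 0.72). With PPARγ this did not recur: 0 were higher and 3 lower with DMSO (5.09% and 3.11%, median -0.09). With Rosi, 1 was higher and 2 lower (7.02% and 12.1%, median -0.15).

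**Figure D5:**
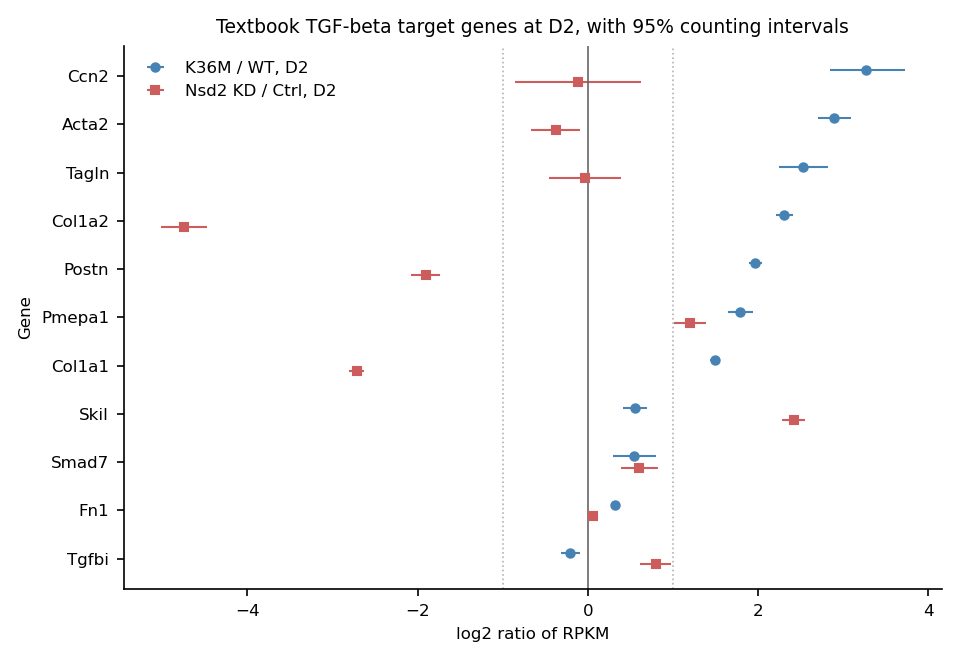
Log2 ratio of RPKM at D2, with 95% counting intervals, of 11 textbook TGF-beta target genes for K36M against WT and Nsd2 KD against Ctrl. Dotted lines mark 2-fold. Pmepa1 (1.79 and 1.20) lies to the right of 2-fold in both, and Col1a2 lies at 2.31 in K36M and -4.74 in Nsd2 KD.

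Among activators that free latent TGF-beta, K36M D2 had 2 of 9 higher and 1 lower than WT, and Nsd2 KD D2 had 2 of 10 higher and 2 lower than Ctrl, so that 1 or 2 genes make up each count. Plau, the urokinase that makes plasmin, was higher in both at low levels (1.46 against 0.313 RPKM and 1.43 against 0.445 RPKM). Thbs1, the matrix protein that releases ligand from the propeptide, was higher in K36M (1.59) and lower in Nsd2 KD cells (-2.94), and is named after its values were seen. Between the controls at D2, Thbs1 was at 1.105 in Ctrl against WT. At D0, K36M against WT had 0 of 9 activators higher and 3 lower (5.02% and 6.36% of all genes). Thbs1 was then at -2.675 and Plau at -1.448. At D7, 5 of 10 were higher and 0 lower (11.7% and 8.46%), with Thbs1 at 0.571 and Plau at 0.871. With PPARγ, Thbs1 was over 2-fold lower in K36M than in WT, both with DMSO and with Rosi. Of the matrix and surface anchors, Lrrc32, which holds latent TGF-beta on the cell surface, was higher in K36M D2 (23.2 against 5.73 RPKM) and at -0.30 in Nsd2 KD D2. Against WT, K36M had Lrrc32 at -1.651 at D0 and at 1.904 at D7, and over 2-fold lower with PPARγ and DMSO. Fbn2, a fibrillin of microfibrils, was at 0.96 in K36M and lower in Nsd2 KD cells (0.0702 against 1.48 RPKM). Its ratio between the controls at D2 was 1.49 in Ctrl against WT, beyond the K36M ratio. Fbn1, the main fibrillin, stood at 0.93 and -0.92.

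Of the co-receptors, pseudoreceptor and sequestering proteoglycans, K36M D2 had 2 of 5 higher and 1 lower, and Nsd2 KD D2 had 0 of 4 higher and 3 lower. Dcn, the proteoglycan decorin that sequesters TGF-beta, was the member of this list lower in both perturbations at D2 (-1.79 and -2.90). In K36M and WT it was at 0.481 against 32.8 RPKM at D0 and at 43.3 against 49.8 RPKM at D7. The Smads and their regulators were even by comparison, with 1 of 12 higher and 0 lower in K36M D2 and 2 higher and 0 lower in Nsd2 KD D2, and the signal carriers Smad2, Smad3 and Smad4, named for their role, stayed within 2-fold in both. In the activin branch, K36M D2 had 3 of 7 higher and 2 lower, and Nsd2 KD D2 had 1 higher and 0 lower. Inhbb had the largest ratio in K36M D2, at 31.3 against 1.501 RPKM in K36M and WT D2 (4.38) and 2.58 against 1.36 RPKM in Nsd2 KD and Ctrl (0.92). Inhba, the activin beta A subunit, was lower in K36M (-2.13) and had the largest ratio of the genes compared in Nsd2 KD cells (2.47). For Inhba, Ctrl itself was at -1.67 against WT at D2. Fstl3, an activin-binding follistatin-like protein, was higher in K36M D2 (2.52).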

How the data were processed

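RNA-Seq libraries were made by the authors from poly(A) RNA, 1 per condition, and mapped to mm9. The submitters' processing notes name CASAVA 1.8.2 and SICER, without roles. The counting tool, its annotation and its use of strand are not given in the sources used here. Each of 14 deposited files holds the authors' RPKM for 29082 RefSeq rows. The histone ChIP-Seq samples are not analysed here.

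The steps between RPKM values gave back whole reads, within 0.01 reads, for 26945 (99.996%) of the 26946 rows that were above 0 in 2 or more libraries, and each library's total came within 3.26e-05 of a whole number. The recovery was tested on simulated data. Reads served for counting intervals only, since with 1 library per condition no count test has a spread to use. Symbols were matched for 28436 of 29082 rows (97.8%) through a RefSeq table on GRCm38.p6, from which only names and promoter windows were taken. Per gene, the transcript with the highest mean RPKM was kept. Gene positions are from GENCODE M1 on mm9.

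A gene was compared where either library reached 1 RPKM and called where the ratio passed 2-fold, the limit the study used. Differences between 2 log2 ratios have intervals from the reciprocals of 4 read counts. The named genes are all members, the 5 genes most alike Ltbp1 and 1 for each other member (mean RPKM of at least 5), and from each pathway list those over 2-fold the same way in both perturbations at D2, or else the 2 with the largest ratio in each. One listed gene is not reported here and was left out of the counts. Members, lists and comparisons were chosen with earlier results of these data known. The comparisons of Ctrl with WT, the latent binder shares, the overlapping genes, the motifs and the promoter windows were added after the values were seen. Alternatives were a filter at 0, a pseudocount of 1, rescaled libraries, the next transcript, a 1.5-fold limit and a counting interval. Python 3.11.15, numpy 2.4.6, pandas 2.3.3, SciPy 1.17.1 and matplotlib 3.10.9 were used.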

Additional observations from a re-analysis of the deposited data

Results flagged for a closer look

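Ltbp2 went opposite ways in K36M against WT cells. Its log2 ratio was -1.003 at D0 and 1.657 at D7, and -1.099 with PPARγ and Rosi. What marked it is that the same contrast passed 2-fold downward at D0 and with Rosi and upward at D7. With 1 library per condition the difference between these ratios was not tested. The D0 ratio lies at the 2-fold limit, and Ltbp2 also differed between the Ctrl and WT populations at D2, by -3.088.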

How the results depend on the processing

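Counts of members over 2-fold in the 15 comparisons were computed again under 6 alternatives. They stayed within 1.5 times with a filter at 0, with rescaled libraries, with the next highest transcript and with a counting interval that excludes 1. With a pseudocount of 1, the count from D2 to D7 in WT cells was 2 in place of 5. With a limit of 1.5-fold, the count was 7 in place of 4 for K36M against WT at D0, 7 in place of 3 from D0 to D2 in K36M cells, 5 in place of 1 from D2 to D7 in K36M cells, 5 in place of 3 for Rosi in WT cells, 4 in place of 2 for K36M against WT with PPARγ and DMSO, and 8 in place of 5 from D0 to D2 in Nsd2 KD cells. Of 150 log2 ratios of single members, 24 left their counting interval when the libraries were rescaled, 29 with the pseudocount and 0 with the next transcript, and none over 2-fold changed direction. The median log2 ratio of all genes was off 0 by more than 0.1 for K36M against WT at D7 (0.12) and with PPARγ and Rosi (-0.11), and for Ctrl against WT at D0 (-0.24) and D2 (-0.14). No paired analysis was possible because each condition has 1 library. No replicate could be left out for the same reason. Depth limited the low levels most: Ltbp1 rested on 248 reads in WT D2 and Tgfb2 on 79 in Nsd2 KD D2.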
